A study of Mus musculus with 18 samples.

Results

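Chemokines are small secreted proteins that guide leukocytes through G protein-coupled receptors, and their genes were compared here between 3 fat depots of the mouse. All rows of the count table whose symbol begins with Ccl, Cxcl, Cx3cl or Xcl followed by a number and at most 1 letter were taken, which gave 38 genes of 54347 rows. A filter on low counts left 31 of them among 18728 genes tested, and the other 7 (Ccl1, Ccl20, Ccl26, Cxcl2, Cxcl3, Cxcl5 and Cxcl15) held at most 36 counts in any library. The pseudogene symbols Ccl19-ps2 and Ccl19-ps3 lay outside the rule. Most CC chemokines attract monocytes, macrophages, eosinophils and lymphocytes, CXC chemokines attract neutrophils or lymphocytes, and a few members, such as Cxcl12, Cxcl14 and Ccl27a, are made by stromal or epithelial cells without inflammation. Adipose tissue contains resident macrophages, lymphocytes and stromal cells beside adipocytes, and the inguinal pad encloses a lymph node, an organ in which Ccl19, Ccl21 and Cxcl13 place lymphocytes in their zones.

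Polyadenylated RNA was sequenced from interscapular brown (iBAT), inguinal white (iWAT) and epididymal white adipose tissue (eWAT) of 6 mice, 12 weeks of age, on the C57BL/6N background and fed a chow diet. Of these mice, 3 were wild type (wt) and 3 carried a CRISPR/Cas9 deletion that includes exon 1 of the long noncoding RNA gene Gm15551 (ΔGm15551, ko), with wild type litter mates as controls. Each tissue and genotype was represented by 3 libraries, and libraries of the same genotype and number came from the same mouse, so that the 18 libraries are not 18 independent animals. The study asked what the loss of Gm15551 changes in adipose tissue. In bulk tissue, fewer cells of a type and less RNA per cell cannot be told apart.

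Total estimated counts per library ranged from 14997901 to 34389586, and the deleted gene checked the labels: Gm15551 held 40 to 316 counts in the wild type libraries and 0 to 4 in the knockout libraries. In a model with tissue and genotype terms, the brown adipocyte list (Ucp1, Cidea, Dio2, Elovl3 and Cox7a1) was higher in iBAT than in iWAT and than in eWAT for 5 of 5 genes (24% and 24.4% of all genes were), with summed levels of 6212 to 11460 CPM, counts relative to the library total, against 11.9 to 204 and 2.47 to 6.50. Of the inguinal libraries, those of wild type mouse 3 and knockout mouse 2 stood apart, with 1257 and 527 CPM summed over 14 B cell, T cell and high endothelial genes, against 5.76 to 30.5 CPM in the other 4 inguinal libraries, 4.23 to 10.3 CPM in iBAT and 7.04 to 22.6 CPM in eWAT. Glycam1, a product of high endothelial venules, was at 72.2 and 23.1 CPM in these libraries and at 0 to 0.11 CPM in the other 4, 3 of which were at 0. They are called the lymph node libraries below, and differences from iWAT are given with and without them. A further pair of libraries carried genes of other tissues: inguinal knockout mouse 1 had 4366 CPM of skeletal muscle genes and epididymal knockout mouse 3 had 4823 CPM of epididymis genes.

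As a share of all counts, chemokines took 0.015% to 0.0172% in brown fat, 0.0421% to 0.164% in iWAT (at most 0.0678% without the lymph node libraries) and 0.0345% to 0.0565% in eWAT. Summed over the 38 genes, the iBAT libraries reached 225 to 255 CPM, those of iWAT 385 to 1137 CPM and those of eWAT 256 to 448 CPM, where CPM are scaled by the trimmed mean of M values, so that the brown depot lay below every white library, by a margin of less than 1 CPM from epididymal knockout mouse 3. A single gene, Cxcl12, took 54.9% of the mean summed level in iBAT, 38.0% in iWAT without the lymph node libraries and 40.8% in eWAT. Per kilobase of exon, a scale on which genes can be set beside each other, the order in iBAT was Cxcl12 (16.1 CPM per kb), Cxcl14 (13.6), Ccl11 (9.10), Ccl27a (8.35) and Cxcl9 (6.97). In iWAT without the lymph node libraries it was Cxcl14 (34.1), Ccl6 (30.3), Cxcl12 (21.5), Ccl11 (20.7) and Ccl8 (19.4), and in eWAT it was Ccl6 (26.0), Ccl21a (23.3), Cxcl12 (19.5), Ccl11 (16.1) and Cxcl9 (10.8). These are orders of means, and differences between neighbours in them were not tested.

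**Figure D1:**
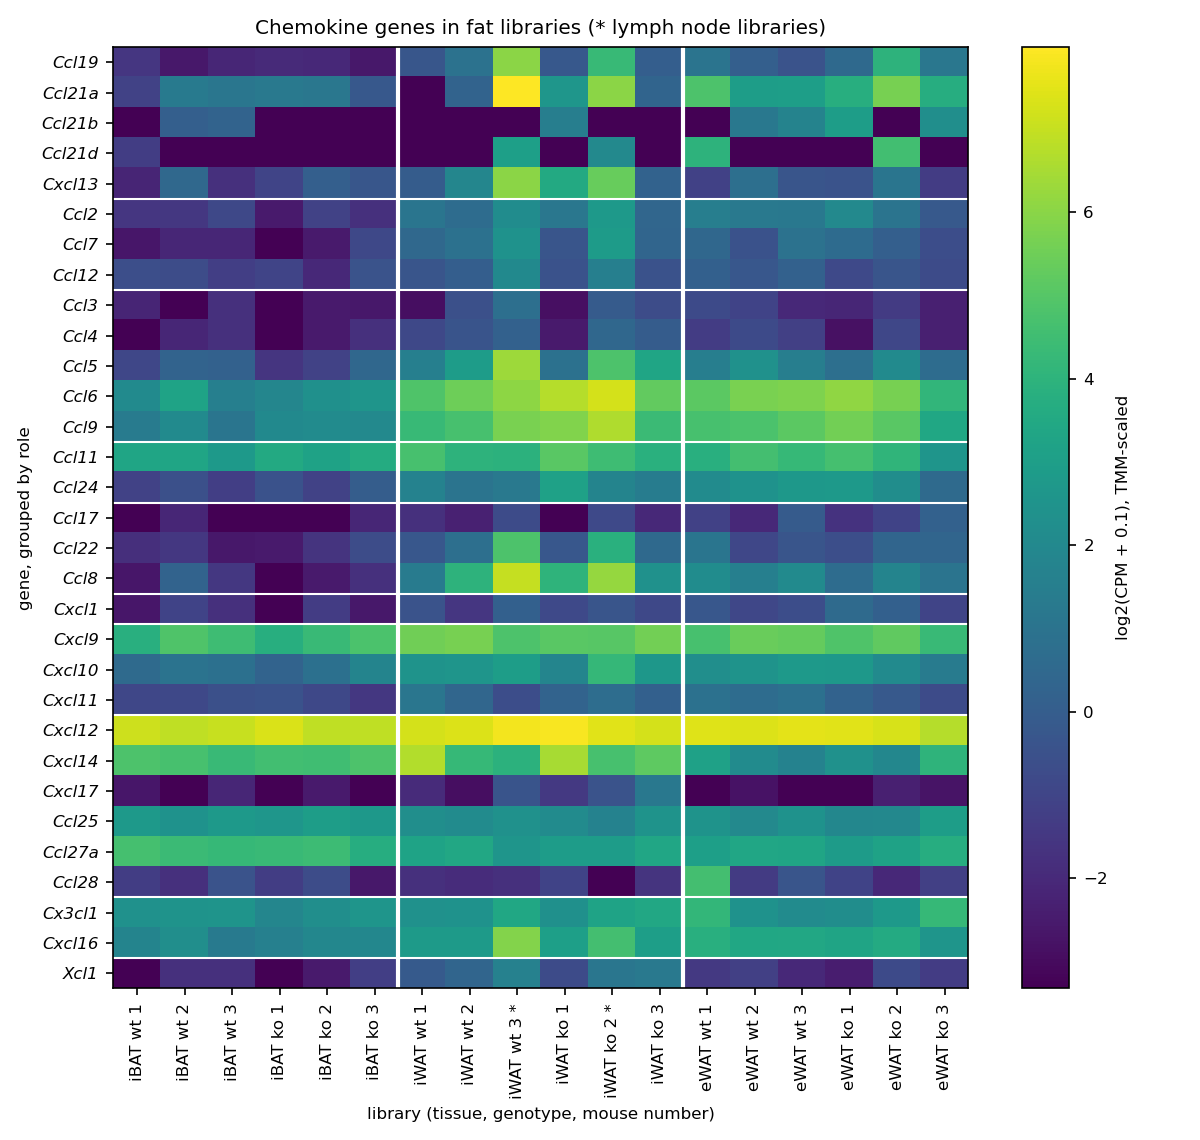
Level of the 31 tested chemokines (rows) in 18 libraries (columns, by tissue, genotype and mouse), drawn as log2(CPM + 0.1) in the colour scale. The iBAT columns are dark for most genes other than Cxcl12, Cxcl14, Ccl27a and Cxcl9, and the inguinal libraries of wild type mouse 3 and knockout mouse 2 are bright for Ccl19, Ccl21a, Cxcl13, Ccl5, Ccl8, Ccl22 and Cxcl16.

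Most chemokines were lower in brown fat. In the comparison of iBAT with iWAT, 25 of 31 chemokines passed an adjusted p of 0.05 (edgeR's quasi-likelihood test, Benjamini-Hochberg over all 18728 genes), 23 lower and 2 higher in iBAT, where 54.3% of all genes passed, 30.3% lower and 24% higher. The median log2 fold change of the chemokines was -2.73, that of all genes -0.14. Against eWAT, 19 passed, 17 lower and 2 higher in iBAT, beside 54.6% of all genes (30.2% lower, 24.4% higher), with medians of -1.69 and -0.17. Without the lymph node libraries the counts were 20 of 30 against iWAT (19 lower, 1 higher, where 45.4% of all genes passed, 24.5% lower and 21% higher) and 20 against eWAT (18 lower, 2 higher, where 57.8% passed, 32.9% lower and 24.9% higher), and the medians were -1.43 and -1.83.

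A set of 15 chemokines was lower in iBAT than in both white depots (Ccl2, Ccl5, Ccl6, Ccl7, Ccl8, Ccl9, Ccl11, Ccl19, Ccl21a, Ccl24, Cxcl1, Cxcl9, Cxcl10, Cxcl11 and Cxcl16), and 14 were so without the lymph node libraries, where Ccl21a and Cxcl1 left and Ccl22 joined. Of all genes, 22.2% were lower in iBAT than in both, and 20.9% without the lymph node libraries. One, Ccl27a, was higher in iBAT than in both, with and without these libraries, as were 20.6% and 19.3% of all genes. The comparisons of iBAT with iWAT and with eWAT share the iBAT libraries. Between the white depots 7 chemokines passed, all higher in iWAT, beside 10.2% of all genes (5.7% higher, 4.5% lower). Of the tested chemokines, Ccl3, Ccl4, Xcl1 and Cxcl17 passed the filter on low counts through iWAT alone, and Ccl17 and Ccl21d through white libraries alone, so that their calls describe genes selected for a level in those depots. But without the lymph node libraries 2 passed, Cxcl14 higher and Ccl21a lower in iWAT, beside 7.93% of all genes (5.02% higher, 2.91% lower).

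Since the libraries of a mouse are paired, the fit was repeated with the mouse as a block. Between iBAT and iWAT 24 chemokines were then called, where 55.6% of all genes were, and between iBAT and eWAT 20, beside 55.7% (30.4% lower). Between iWAT and eWAT 5 were called, beside 9.25% (4.65% higher, 4.6% lower). Without the lymph node libraries as well, the counts were 19 (46.8% of all genes, 21.9% higher), 23 (59.2%, 33.2% lower) and 4 (10.1%, 5.96% higher and 4.18% lower). With all libraries the block ended the calls of Ccl21a (iBAT against iWAT), Ccl21d (iBAT against eWAT), Ccl22 and Ccl5 (iWAT against eWAT) and added Ccl4 and Cxcl12 (iBAT against eWAT).

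**Figure D2:**
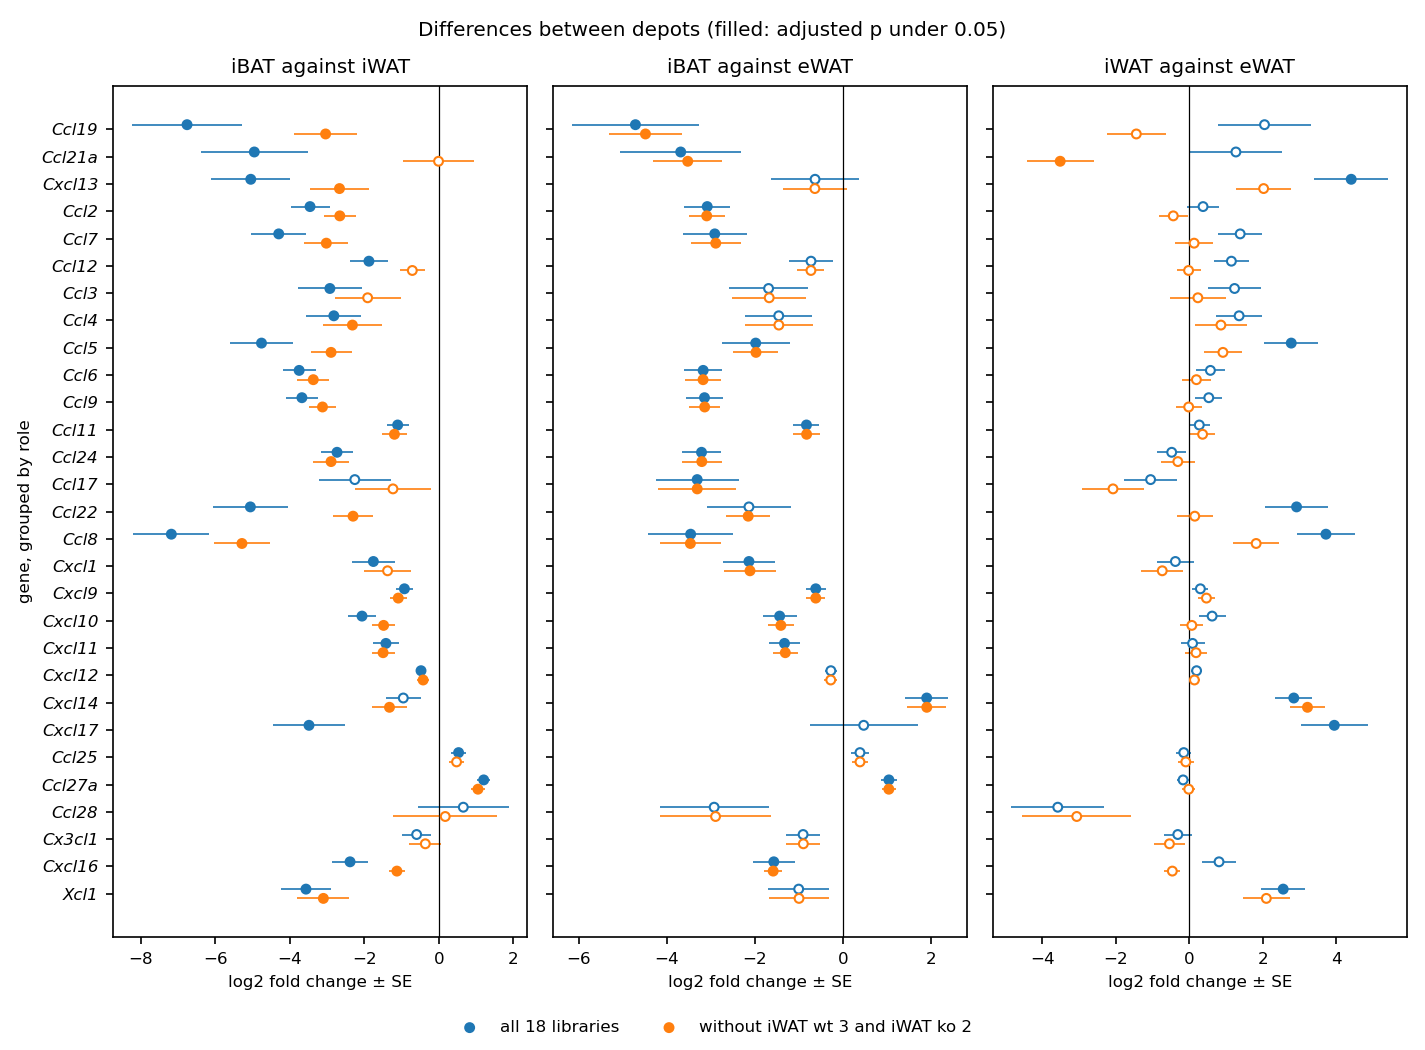
Log2 fold change of 29 tested chemokines in 3 depot comparisons, with all libraries (blue) and without the lymph node libraries (orange); bars are ± 1 SE from edgeR and filled points passed an adjusted p of 0.05. Most points of the 2 brown depot comparisons lie below 0, Ccl27a lies above 0 in both, and the points between the white depots move towards 0 without the lymph node libraries for Ccl8, Cxcl13, Ccl5 and Ccl22. Ccl21b and Ccl21d, at 0 in most libraries, are not drawn.

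Ccl27a was the single chemokine higher in brown than in both white fats. It encodes the ligand of CCR10 and is best known from keratinocytes of the skin. Ccl27a ran from 13.2 to 24.9 CPM (median 20.3) over the 6 iBAT libraries, from 5.9 to 11 CPM (median 8.53) over those of iWAT and from 7.38 to 12.9 CPM (median 9.44) over those of eWAT, so that each iBAT library lay above each white library on this scale. As a share of all counts the depots overlapped, with 205 of 21451689 counts in iBAT knockout mouse 3 and 261 of 14997901 in epididymal knockout mouse 3. A fit on library totals without the scaling was not run. Its log2 fold change was 1.20 ± 0.18 (SE, edgeR adjusted p = 3.16e-05) against iWAT and 1.04 ± 0.18 (SE, edgeR adjusted p = 0.000118) against eWAT, and 1.05 ± 0.18 and 1.03 ± 0.16 without the lymph node libraries. The gene (ENSMUSG00000073888.13) lies on chr4:41769467-41774247 of GRCm38, minus strand, and overlaps an exon of Il11ra1 on the other strand by 8 bp. The copy Ccl27b has no row in the table.

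The transcript of its receptor Ccr10 was also highest in iBAT. Ccr10 ran from 5.56 to 11.7 CPM (median 8.53) over the 6 iBAT libraries, from 1.32 to 3.66 CPM (median 3.12) over those of iWAT and from 0.941 to 1.98 CPM (median 1.51) over those of eWAT, again without overlap between iBAT and the white depots on the scaled CPM. Ccr10 was higher in iBAT than in iWAT by 1.56 ± 0.26 (SE, edgeR adjusted p = 8.86e-05) and than in eWAT by 2.48 ± 0.27 (SE, edgeR adjusted p = 7.70e-07) on the log2 scale (1.44 ± 0.24 and 2.50 ± 0.22 without the lymph node libraries), and it was the 1 receptor of 14 tested that was higher in iBAT in either comparison. It was also higher in iWAT than in eWAT (0.92 ± 0.26 SE, edgeR adjusted p = 0.0347, or 1.06 ± 0.23 without those libraries), where Ccl27a showed -0.17 ± 0.18.

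Cxcl14, a chemokine of epithelia and adipose tissue that acts on monocytes and dendritic cells, set the white depots apart. Cxcl14 ran from 19.8 to 28.7 CPM (median 24.9) over the 6 iBAT libraries, from 15.5 to 104 CPM (median 31.2) over those of iWAT and from 3.16 to 16.1 CPM (median 4.73) over those of eWAT. Each iBAT library lay above each eWAT library on the scaled CPM, whereas the iWAT libraries ran from below the eWAT maximum to the highest value of the study in wild type mouse 1 (104 CPM) and knockout mouse 1 (90.6 CPM). As a share of all counts iBAT and eWAT overlapped, with 303 of 20709430 counts in iBAT knockout mouse 1 and 326 of 14997901 in epididymal knockout mouse 3. Cxcl14 was higher in iWAT than in eWAT by 2.85 ± 0.50 (SE, edgeR adjusted p = 0.00181) and in iBAT than in eWAT by 1.89 ± 0.49 (SE, edgeR adjusted p = 0.00368), and the first of these was 3.22 ± 0.48 (SE, edgeR adjusted p = 0.000735) without the lymph node libraries, which had 15.5 and 25.9 CPM. Between iBAT and iWAT the difference was -0.95 ± 0.47 (SE, edgeR adjusted p = 0.0969) with all libraries and -1.33 ± 0.46 (SE, edgeR adjusted p = 0.0282) without them, and the mouse block took the latter to -0.90 ± 0.45 (SE, edgeR adjusted p = 0.123).

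Cxcl12, the ligand of CXCR4 made by stromal and endothelial cells, had the highest mean CPM of the chemokines in every depot. Cxcl12 ran from 118 to 159.9 CPM (median 125) over the 6 iBAT libraries, from 150.4 to 233 CPM (median 173) over those of iWAT and from 107 to 181 CPM (median 170.0) over those of eWAT. The libraries of the depots overlapped, and the log2 fold change of iBAT was -0.48 ± 0.14 (SE, edgeR adjusted p = 0.00902) against iWAT and -0.28 ± 0.14 (SE, edgeR adjusted p = 0.105) against eWAT, with -0.42 ± 0.16 (SE, edgeR adjusted p = 0.0411) against iWAT without the lymph node libraries. The call against iWAT was lost in wild type libraries alone. It was also lost when inguinal knockout mouse 1 and epididymal knockout mouse 3 were left out beside the lymph node libraries. With the mouse block the difference from eWAT was -0.27 ± 0.10 (SE, edgeR adjusted p = 0.0406). Its receptor Cxcr4 had 0.776, 2.27 and 2.93 CPM (lowest, median and highest) in iBAT and 1.73, 9.85 and 17.6 CPM in eWAT, a log2 fold change of -2.30 ± 0.62 (SE, edgeR adjusted p = 0.00478), and of -2.30 ± 0.49 without the lymph node libraries.

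Ccl25, a ligand of CCR9 known from thymus and small intestine, was slightly higher in iBAT than in iWAT on the scaled CPM. Ccl25 ran from 5.25 to 7.81 CPM (median 6.61) over the 6 iBAT libraries, from 3.17 to 5.47 CPM (median 4.48) over those of iWAT and from 3.65 to 7.82 CPM (median 4.63) over those of eWAT. The log2 fold change was 0.53 ± 0.20 (SE, edgeR adjusted p = 0.0356) with all libraries and 0.48 ± 0.21 (SE, edgeR adjusted p = 0.0831) without the lymph node libraries, and 0.38 ± 0.20 (SE, edgeR adjusted p = 0.123) against eWAT. As a share of all counts Ccl25 was not higher in iBAT, so that the sign rests on the scaling. It held 77 to 109 counts per iBAT library (totals of 19968075 to 24828001) and 74 to 157 per iWAT library (totals of 18385784 to 27410053). The libraries overlapped, and the gene shares 204 bp of exon with Elavl1 on the opposite strand, whose reads cannot be told apart from it if the counting did not use strand.

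**Figure D3:**
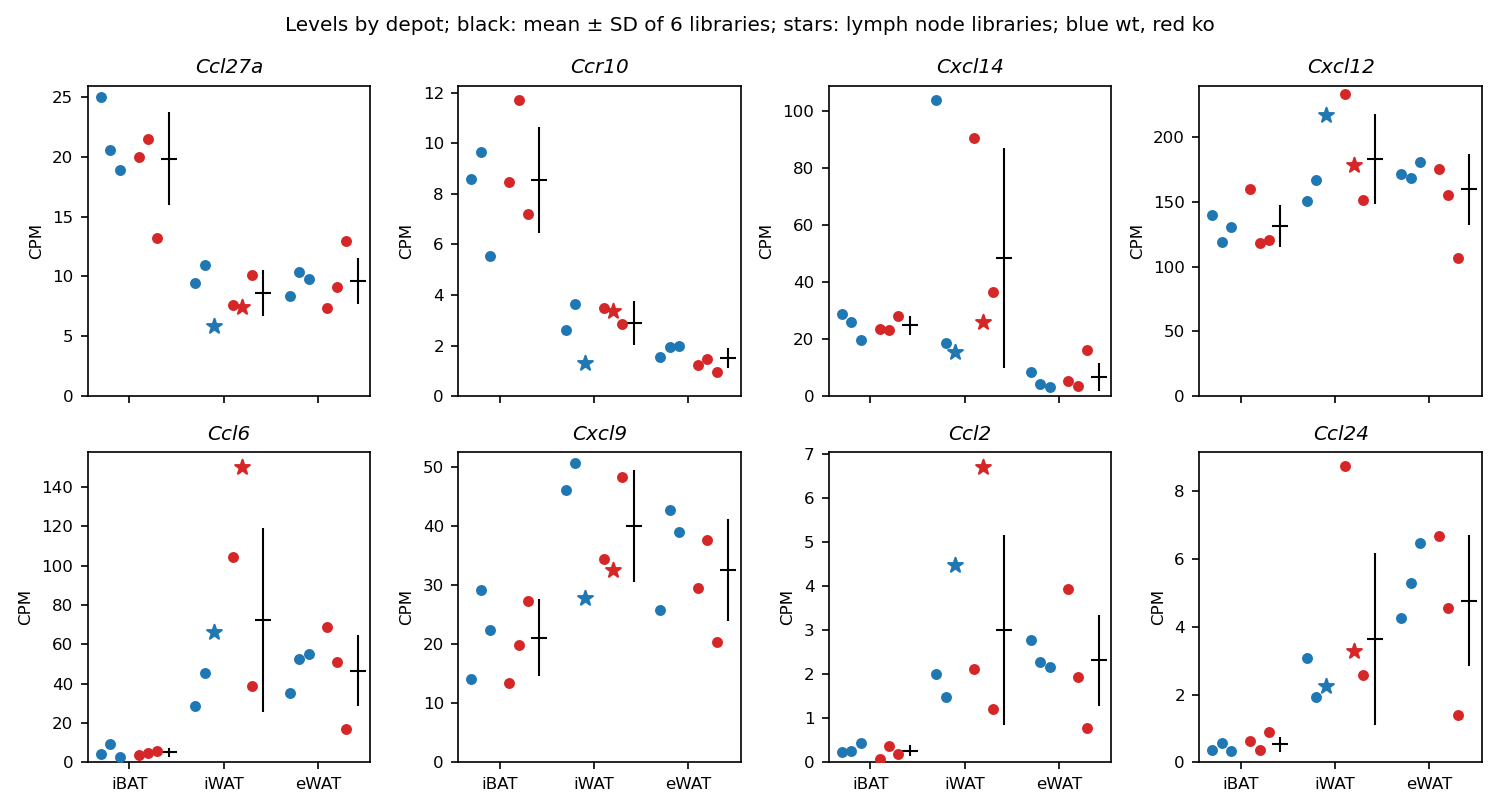
Level in CPM (linear axes from 0, a scale for each panel) of Ccl27a, its receptor Ccr10, Cxcl14, Cxcl12, Ccl6, Cxcl9, Ccl2 and Ccl24 in each library (points; blue wt, red ko, stars the lymph node libraries), with the mean ± SD of 6 libraries per depot. Ccl27a and Ccr10 are highest in iBAT, Cxcl14 is lowest in eWAT, and Ccl6, Ccl2 and Ccl24 are lowest in iBAT.

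The CCR2 ligands, which attract monocytes, were mostly lower in brown fat. Of 3 tested, 3 were lower in iBAT than in iWAT (2 without the lymph node libraries) and 2 lower than in eWAT, beside 30.3% (24.5%) and 30.2% of all genes. The macrophage genes moved with them: 9 of 9 listed (Adgre1, Cd68, Csf1r, C1qa, C1qb, C1qc, Mrc1, Cd163 and Itgam) were lower in iBAT in both comparisons, with or without the lymph node libraries, beside the same shares of all genes, and they summed to 68.3 to 157 CPM in brown fat, 301 to 1260 CPM in inguinal and 153 to 539 CPM in epididymal libraries. Genes of fibroblasts and progenitors were also lower in brown fat, 7 of 7 against iWAT and 6 of 7 against eWAT in both fits, and summed to 425 to 709 CPM in iBAT, 2989 to 9558 CPM in iWAT and 1141 to 2554 CPM in eWAT. The part of macrophages and of stromal cells in these differences was not tested.

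Ccl6 and Ccl9, CCR1 ligands that mouse macrophages and myeloid cells express constitutively, were lower in iBAT than in both white depots. Ccl6 ran from 2.84 to 9.33 CPM (median 4.62) over the 6 iBAT libraries, from 28.7 to 150.3 CPM (median 55.8) over those of iWAT and from 17.1 to 68.6 CPM (median 51.9) over those of eWAT. Ccl9 ran from 2 to 4.28 CPM (median 3.97) over the 6 iBAT libraries, from 19.3 to 98.5 CPM (median 38.8) over those of iWAT and from 10.6 to 47.3 CPM (median 30.9) over those of eWAT. For both, every iBAT library lay below every white library. The log2 fold change of Ccl6 was -3.75 ± 0.45 (SE, edgeR adjusted p = 2.85e-06) against iWAT and -3.17 ± 0.43 (SE, edgeR adjusted p = 1.06e-05) against eWAT, and that of Ccl9 -3.68 ± 0.42 (SE, edgeR adjusted p = 1.82e-06) and -3.15 ± 0.41 (SE, edgeR adjusted p = 6.75e-06). Without the lymph node libraries Ccl6 was -3.37 ± 0.43 and Ccl9 -3.12 ± 0.37 against iWAT, and neither passed between the white depots.

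Ccl5, which T cells and natural killer cells secrete, was lower in iBAT than in both white depots. Ccl5 ran from 0.235 to 1.29 CPM (median 0.734) over the 6 iBAT libraries, from 1.78 to 80.4 CPM (median 8.67) over those of iWAT and from 1.49 to 5.14 CPM (median 2.72) over those of eWAT. No iBAT library reached the lowest white library. The highest iWAT values were those of the lymph node libraries (80.4 and 28 CPM), and the other 4 had 1.78 to 9.87 CPM. Ccl5 differed between iBAT and iWAT by -4.76 ± 0.83 (SE, edgeR adjusted p = 0.000148) and, without these libraries, by -2.89 ± 0.55 (SE, edgeR adjusted p = 0.000545), and between iBAT and eWAT by -1.98 ± 0.77 (SE, edgeR adjusted p = 0.0387) and -1.98 ± 0.51 (SE, edgeR adjusted p = 0.00388). The difference between the white depots fell from 2.78 ± 0.74 (SE, edgeR adjusted p = 0.0251) to 0.92 ± 0.52 (SE, edgeR adjusted p = 0.32), and with the mouse block it was 1.94 ± 0.64 (SE, edgeR adjusted p = 0.0794).

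Ccl3 and Ccl4, inflammatory CC chemokines, were scarce in all depots. Ccl3 ran from 0 to 0.194 CPM (median 0.0698) over the 6 iBAT libraries, from 0.0325 to 1.65 CPM (median 0.551) over those of iWAT and from 0.099 to 0.484 CPM (median 0.22) over those of eWAT. Ccl4 ran from 0 to 0.194 CPM (median 0.102) over the 6 iBAT libraries, from 0.0773 to 1.28 CPM (median 0.769) over those of iWAT and from 0.0429 to 0.485 CPM (median 0.327) over those of eWAT. Values in iBAT were at or below the level of 3 counts, 0.186 to 0.235 CPM there. Ccl4 was lower in iBAT than in iWAT, with a log2 fold change of -2.82 ± 0.74 (SE, edgeR adjusted p = 0.00412), or -2.32 ± 0.80 (SE, edgeR adjusted p = 0.0272) without the lymph node libraries, and so was Ccl3, with -2.93 ± 0.87 (SE, edgeR adjusted p = 0.00905), or -1.91 ± 0.89 (SE, edgeR adjusted p = 0.0925). With the summed lymph node genes as a covariate both calls were lost, and limma voom also lost that of Ccl3. Against eWAT neither passed (-1.69 ± 0.89 and -1.46 ± 0.76), although Ccl4 did with the mouse block (-1.55 ± 0.56 SE, edgeR adjusted p = 0.0318). Both passed the filter through iWAT alone (4 of 6 libraries for Ccl3 and 5 for Ccl4, with 1 and 2 in eWAT and 0 in iBAT), so that the differences from iWAT are a description.

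Ccl2 (MCP-1) and Ccl7 recruit monocytes through CCR2. Ccl2 ran from 0.0783 to 0.452 CPM (median 0.253) over the 6 iBAT libraries, from 1.21 to 6.72 CPM (median 2.07) over those of iWAT and from 0.792 to 3.95 CPM (median 2.23) over those of eWAT. Ccl7 ran from 0 to 0.451 CPM (median 0.102) over the 6 iBAT libraries, from 0.696 to 7.36 CPM (median 1.53) over those of iWAT and from 0.545 to 1.83 CPM (median 1.12) over those of eWAT. Every iBAT library lay below every white library for both genes. Ccl2 differed by -3.46 ± 0.52 (SE, edgeR adjusted p = 3.69e-05) from iWAT and -3.08 ± 0.52 (SE, edgeR adjusted p = 8.95e-05) from eWAT, and Ccl7 by -4.30 ± 0.74 (SE, edgeR adjusted p = 0.000122) and -2.91 ± 0.73 (SE, edgeR adjusted p = 0.00278). Leaving out the lymph node libraries gave -2.66 ± 0.43 and -3.02 ± 0.59 against iWAT, and the differences between the white depots did not pass in either fit. The receptor Ccr2 was lower in iBAT, with log2 fold changes of -2.88 ± 0.47 (SE, edgeR adjusted p = 7.13e-05) and -2.44 ± 0.46 (SE, edgeR adjusted p = 0.000253) against the same depots, or -2.11 ± 0.38 (SE, edgeR adjusted p = 0.00038) and -2.45 ± 0.36 (SE, edgeR adjusted p = 3.77e-05) without the lymph node libraries.

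Ccl12, the third CCR2 ligand, had a low level in all depots. Ccl12 ran from 0.15 to 0.644 CPM (median 0.455) over the 6 iBAT libraries, from 0.619 to 4.06 CPM (median 0.808) over those of iWAT and from 0.472 to 1.04 CPM (median 0.704) over those of eWAT. Its call against iWAT (-1.88 ± 0.50 SE, edgeR adjusted p = 0.00457) was lost without the lymph node libraries (-0.71 ± 0.33 SE, edgeR adjusted p = 0.0971), which had 4.06 and 2.82 CPM, above all other libraries.

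The eotaxins attract eosinophils through CCR3. Of 3 listed, Ccl26 was at 0 in all but 1 library and Ccl11 and Ccl24 were lower in iBAT than in both white depots. Ccl11 ran from 6.59 to 12.3 CPM (median 9.88) over the 6 iBAT libraries, from 14.5 to 33.9 CPM (median 18.9) over those of iWAT and from 5.89 to 24.8 CPM (median 17.8) over those of eWAT. Ccl24 ran from 0.323 to 0.901 CPM (median 0.48) over the 6 iBAT libraries, from 1.94 to 8.74 CPM (median 2.83) over those of iWAT and from 1.39 to 6.69 CPM (median 4.92) over those of eWAT. All iBAT libraries were below all white libraries for Ccl24, while Ccl11 of epididymal knockout mouse 3 lay below the lowest iBAT library. The fold changes of Ccl11 were -1.11 ± 0.30 (SE, edgeR adjusted p = 0.00458) and -0.83 ± 0.30 (SE, edgeR adjusted p = 0.0245), and those of Ccl24 -2.73 ± 0.44 (SE, edgeR adjusted p = 6.07e-05) and -3.21 ± 0.44 (SE, edgeR adjusted p = 1.13e-05), against iWAT and eWAT. Without the lymph node libraries, in which neither gene was raised, the values against iWAT were -1.19 ± 0.33 and -2.89 ± 0.48. The macrophage genes were lower in iBAT as well, and their part in the Ccl24 difference was not tested.

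The interferon-inducible CXCR3 ligands, which attract activated T cells and natural killer cells, were lower in iBAT in 3 of 3 genes and in both comparisons, beside 30.3% (iWAT) and 30.2% (eWAT) of all genes. The annotation gives Cxcl11 as a polymorphic pseudogene, a class for genes that are intact in some strains only. Cxcl9 ran from 13.5 to 29.1 CPM (median 21.1) over the 6 iBAT libraries, from 27.9 to 50.6 CPM (median 40.2) over those of iWAT and from 20.3 to 42.6 CPM (median 33.6) over those of eWAT. Cxcl10 ran from 1.1 to 3.35 CPM (median 1.7) over the 6 iBAT libraries, from 3.44 to 18.4 CPM (median 6.04) over those of iWAT and from 2.48 to 6.67 CPM (median 5.16) over those of eWAT. Cxcl11 ran from 0.258 to 0.626 CPM (median 0.452) over the 6 iBAT libraries, from 0.528 to 2.05 CPM (median 1.18) over those of iWAT and from 0.495 to 1.76 CPM (median 1.29) over those of eWAT. For Cxcl10 every iBAT library lay below every iWAT library, while iBAT and eWAT overlapped, and for Cxcl9 and Cxcl11 iBAT overlapped both white depots. Against iWAT and eWAT, Cxcl9 differed by -0.92 ± 0.22 (SE, edgeR adjusted p = 0.00218) and -0.62 ± 0.22 (SE, edgeR adjusted p = 0.0254), Cxcl10 by -2.06 ± 0.39 (SE, edgeR adjusted p = 0.000276) and -1.44 ± 0.38 (SE, edgeR adjusted p = 0.00433), and Cxcl11 by -1.42 ± 0.35 (SE, edgeR adjusted p = 0.00249) and -1.33 ± 0.35 (SE, edgeR adjusted p = 0.00408). Without the lymph node libraries all 3 were called in both comparisons (-1.09 to -1.50 against iWAT), and none was called between the white depots. Cxcl9 was lower in both lymph node libraries (27.9 and 32.5 CPM) than in the other 4 inguinal libraries (34.4 to 50.6 CPM), as was Ccl27a. Cxcl10 and Cxcl11 share 133 bp and 1582 bp of exon with Art3 and Gm2673 on the opposite strand.

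Promoter sequence was read for what the members share that their symbols did not fix, as 250 bases before to 50 after the start site (RefSeq, GRCm38.p6), and 27 of 38 chemokines matched. The NF-kappaB letters (GGGA, any 2 bases, TTCC), searched on both strands, were in the promoters of Ccl1, Cxcl1, Cxcl2, Cxcl3 and Cxcl10, and in 1.47% of all 32851 promoters. The interferon-response letters (GAAA, any 2 bases, GAAA), searched likewise, were in those of Ccl19, Cxcl10 and Cxcl14, and in 3.44% of all promoters. Cxcl10 was the chemokine with both, and its windows are shown with those of Cxcl1 and Cxcl14 to let the letters be compared (capitals mark the match; all 5′ to 3′ on the gene's strand).
Cxcl10, interferon-response letters, chr5:92349083-92349112 (minus): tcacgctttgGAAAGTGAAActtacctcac
Cxcl10, NF-kappaB letters, chr5:92349029-92349058 (minus): agaggggagaGGGAAATTCCaagttcatgg
Cxcl1, NF-kappaB letters, chr5:90891164-90891193 (plus): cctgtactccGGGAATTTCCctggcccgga
Cxcl14, interferon-response letters, chr13:56296704-56296733 (minus): gtgtccacagGAAACAGAAAagcagcaccc
These matches are a description of the letters in the windows and not of binding.

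Of 5 neutrophil-attracting CXC chemokines, which act on CXCR2, Cxcl1 alone passed the filter. Cxcl1 ran from 0 to 0.389 CPM (median 0.129) over the 6 iBAT libraries, from 0.242 to 1.02 CPM (median 0.557) over those of iWAT and from 0.396 to 1.42 CPM (median 0.645) over those of eWAT. It was lower in iBAT than in eWAT (-2.14 ± 0.58 SE, edgeR adjusted p = 0.00505) and than in iWAT (-1.76 ± 0.57 SE, edgeR adjusted p = 0.0162), but not than iWAT without the lymph node libraries (-1.38 ± 0.63 SE, edgeR adjusted p = 0.0874), at levels of a few counts in iBAT. Summed over the 5 genes, no library exceeded 0.526 CPM (brown), 2.93 CPM (inguinal) or 1.72 CPM (epididymal).

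Ccl8 showed the widest range of the ligands of CCR4 and CCR8, receptors of Th2 and regulatory T cells. In the mouse Ccl8 is a CCR8 ligand made by macrophages of skin and lymph node. Ccl8 ran from 0 to 1.1 CPM (median 0.134) over the 6 iBAT libraries, from 2.5 to 128 CPM (median 16) over those of iWAT and from 1.5 to 4.44 CPM (median 3.12) over those of eWAT. All white libraries lay above all iBAT libraries. The log2 fold change was -7.18 ± 1.02 (SE, edgeR adjusted p = 1.85e-05) against iWAT, the largest difference of a chemokine between these depots, and -3.46 ± 0.97 (SE, edgeR adjusted p = 0.00609) against eWAT, and without the lymph node libraries (128 and 72.7 CPM) it was -5.29 ± 0.75 (SE, edgeR adjusted p = 4.12e-05) against iWAT. Between the white depots it went from 3.72 ± 0.80 (SE, edgeR adjusted p = 0.0077) to 1.82 ± 0.63 (SE, edgeR adjusted p = 0.0917), with the other 4 inguinal libraries at 2.5 to 16.2 CPM overlapping eWAT.

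Ccl22 and Ccl17, products of dendritic cells that act on CCR4, lie beside each other on chromosome 8 (from 94745590 to 94812036 with Cx3cl1 between them). Ccl22 ran from 0.0646 to 0.515 CPM (median 0.206) over the 6 iBAT libraries, from 0.735 to 28.7 CPM (median 1.49) over those of iWAT and from 0.437 to 1.98 CPM (median 0.94) over those of eWAT. Ccl17 ran from 0 to 0.13 CPM (median 0) over the 6 iBAT libraries, from 0 to 0.495 CPM (median 0.171) over those of iWAT and from 0.146 to 1.04 CPM (median 0.37) over those of eWAT. The fold change of Ccl22 between iBAT and iWAT was -5.06 ± 1.01 (SE, edgeR adjusted p = 0.000497), or -2.30 ± 0.54 (SE, edgeR adjusted p = 0.00262) without the lymph node libraries. Against eWAT it passed in the fit without these libraries (-2.15 ± 0.51 SE, edgeR adjusted p = 0.00198), and not with all libraries (-2.14 ± 0.96 SE, edgeR adjusted p = 0.0693). Between the white depots the value of 2.92 ± 0.87 (SE, edgeR adjusted p = 0.0419) fell to 0.15 ± 0.49 (SE, edgeR adjusted p = 0.905), and to 1.95 ± 0.89 (SE, edgeR adjusted p = 0.195) with the mouse block. Ccl17 was lower in iBAT than in eWAT (-3.31 ± 0.94 SE, edgeR adjusted p = 0.00688) at no more than 1.04 CPM in any library.

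The lymphoid homing chemokines were high in the lymph node libraries. Ccl19 and Ccl21 bring naive T cells and dendritic cells into lymph nodes through CCR7, and Cxcl13 brings B cells into follicles through CXCR5. In the lymph node libraries of wild type mouse 3 and knockout mouse 2, Ccl21a was at 253 and 64.2 CPM, Ccl19 at 65.3 and 19.2 CPM and Cxcl13 at 65.2 and 40.8 CPM. The log2 ratio of their mean to that of the other 4 inguinal libraries was 6.25 for Ccl21a, 5.32 for Ccl19, 4.27 for Ccl22, 3.65 for Cxcl13, 3.34 for Ccl8, 3.30 for Ccl5 and 2.46 for Cxcl16. In all, 16 of the 31 tested chemokines were higher in both lymph node libraries than in each of the other 4, and 2 were lower in both. The share of all genes that separated in this way was not counted, so that these counts cannot be read as particular to chemokines. These libraries also had more macrophage RNA (1029 and 1260 CPM, against 301 to 708 CPM in the other 4) and neutrophil RNA (143 and 19.4 CPM, against 2.40 to 3.98 CPM), and less of adipocyte genes (7262 and 10510 CPM, against 18386 to 20966 CPM), and the split between the node and the fat around it was not tested.

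**Figure D4:**
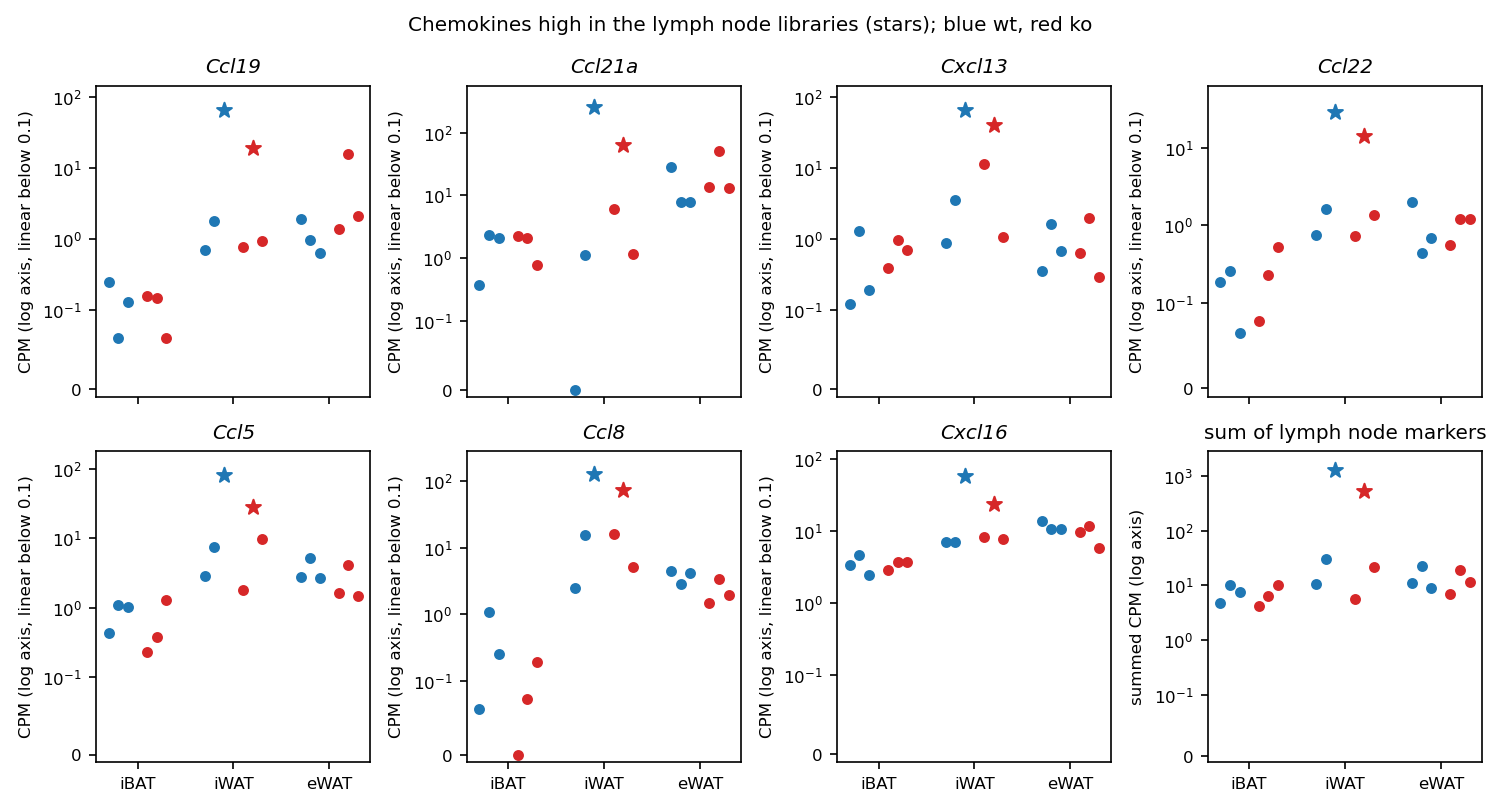
Level in CPM (logarithmic axis, linear below 0.1) of Ccl19, Ccl21a, Cxcl13, Ccl22, Ccl5, Ccl8 and Cxcl16 and the summed level of 14 lymph node genes in each library, by depot (blue wt, red ko; stars the lymph node libraries). The starred libraries lie above the other 4 inguinal libraries in every panel, and Ccl21a of the other inguinal libraries lies below all epididymal libraries.

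Ccl19 was lower in iBAT with and without the lymph node libraries. Ccl19 ran from 0.0644 to 0.248 CPM (median 0.14) over the 6 iBAT libraries, from 0.714 to 65.3 CPM (median 1.38) over those of iWAT and from 0.642 to 15.8 CPM (median 1.65) over those of eWAT. The other 4 inguinal libraries had 0.714 to 1.8 CPM, above every iBAT library and within the range of eWAT. The log2 fold change was -6.76 ± 1.48 (SE, edgeR adjusted p = 0.00106) against iWAT and -3.04 ± 0.86 (SE, edgeR adjusted p = 0.00901) without the lymph node libraries, and -4.71 ± 1.45 (SE, edgeR adjusted p = 0.0112) and -4.48 ± 0.83 (SE, edgeR adjusted p = 0.000296) against eWAT. The call against iWAT was lost with a lymph node covariate (-1.91, edgeR adjusted p = 0.0748) and with limma voom (-3.40, limma adjusted p = 0.0817), and DESeq2 gave no adjusted p in either comparison. The gene (ENSMUSG00000071005.7) spans chr4:42754525-42756577, minus strand.

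Ccl21 is encoded in the reference by near-identical copies, of which Ccl21a, Ccl21b and Ccl21d have rows in the table. In GENCODE M21 (GRCm38) they lie on chr4:42772860-42773993 (Ccl21a, minus strand), chr4:42255767-42256432 (Ccl21b, plus strand) and chr4:41903610-41904743 (Ccl21d, plus strand), with 4 exons each. Over 399 coding bases without the stop, Ccl21b and Ccl21d were identical and Ccl21a differed from both at 2 bases, T84A and C194T (Ccl21a base first, counted from the start of the coding sequence, then that of the copy), an identity of 99.5%. The stretches that hold these bases, with the differing base in capitals, show how little sequence separates the rows (coding strand).
Ccl21a, chr4:42773733-42773761: agtgatggagggggTcaggactgctgcct
Ccl21b, chr4:42255924-42255952: agtgatggagggggAcaggactgctgcct
Ccl21d, chr4:41903842-41903870: agtgatggagggggAcaggactgctgcct
Ccl21a, chr4:42773529-42773548: gttctCaccccggaagcact
Ccl21b, chr4:42256137-42256156: gttctTaccccggaagcact
Ccl21d, chr4:41904055-41904074: gttctTaccccggaagcact
Ccl21b and Ccl21d held counts in different libraries. Ccl21b was above 0 in 7 libraries, with at most 7.72 CPM, and at 0 in each of the 5 where Ccl21d was above 0, with at most 23.5 CPM. The division of reads among the copies is therefore uncertain, and Ccl21b passed in no comparison in the fits with and without the lymph node libraries, though it did between iBAT and eWAT with a lymph node covariate and between iWAT and eWAT without the inguinal library of knockout mouse 1. Ccl21d passed between iBAT and eWAT (log2 fold change -6.90 ± 2.48 SE, edgeR adjusted p = 0.0263), not with the mouse block (adjusted p = 0.0857), and in the 6 iBAT libraries and the other 4 inguinal libraries it was at 0 in all but 1.

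For Ccl21a, the direction between the white depots turned with the libraries and the model. Ccl21a ran from 0.371 to 2.33 CPM (median 2.09) over the 6 iBAT libraries, from 0 to 253 CPM (median 3.62) over those of iWAT and from 7.81 to 51 CPM (median 13.4) over those of eWAT. The 4 inguinal libraries without lymph node genes ran from 0 to 6.11 CPM, below each of the 6 epididymal libraries. The log2 fold change of iWAT against eWAT was 1.27 ± 1.25 (SE, edgeR adjusted p = 0.566) with all libraries and -3.52 ± 0.92 (SE, edgeR adjusted p = 0.0289) without the lymph node libraries, and leaving out the inguinal library of wild type mouse 3 alone gave -1.15 (edgeR adjusted p = 0.59). With all libraries kept, the mouse block gave -1.03 (not called) and limma voom with quality weights -4.09 (called). With the 3 copies summed and the lymph node libraries left out it was -3.66 (edgeR adjusted p = 0.0346). Against iBAT, iWAT changed from -4.96 ± 1.44 (SE, edgeR adjusted p = 0.00798) to -0.01 ± 0.95 (SE, edgeR adjusted p = 0.998) in the iBAT minus iWAT direction, the former being -2.86 ± 1.45 (SE, edgeR adjusted p = 0.111) with the mouse block. The difference of iBAT from eWAT was -3.68 ± 1.37 (SE, edgeR adjusted p = 0.0308) and -3.53 ± 0.79 (SE, edgeR adjusted p = 0.00135).

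The scavenging receptor of Ccl19, Ccl21 and Ccl25, Ackr4, was, like Ccl21a, higher in eWAT than in both other depots once the lymph node libraries were left out, and with all libraries it was lower in iBAT than in both. Ackr4 ran from 0.495 to 0.827 CPM (median 0.596) over the 6 iBAT libraries, from 0.974 to 6.43 CPM (median 1.27) over those of iWAT and from 0.922 to 30.9 CPM (median 5.78) over those of eWAT. It was higher in eWAT than in iBAT (iBAT minus eWAT -3.78 ± 0.73 SE, edgeR adjusted p = 0.000346) and, without the lymph node libraries, than in iWAT (iWAT minus eWAT -2.85 ± 0.66 SE, edgeR adjusted p = 0.0153), with the highest value in epididymal knockout mouse 3. Between iBAT and iWAT the log2 fold change of -2.02 ± 0.70 (SE, edgeR adjusted p = 0.0212) became -0.87 ± 0.62 (SE, edgeR adjusted p = 0.276) without those libraries. Lymphatic endothelial genes, a known source of Ccl21a, summed to 24.4 to 32.8 CPM in brown, 29.0 to 95.5 CPM in inguinal and 38.5 to 76.1 CPM in epididymal fat, and 1 of 5 was lower in iWAT than in eWAT without the lymph node libraries, beside 2.91% of all genes. Mesothelial genes (Msln, Upk3b, Upk1b, Wt1, Krt19, Krt8 and Krt18) summed to 79.4 to 706 CPM in eWAT, 1.92 to 125 CPM in iWAT and at most 1.41 CPM in iBAT. The libraries with 706 and 125 CPM, both of knockout mouse 3, also had the highest sums of epithelial genes of their depots (442 and 72.7 CPM). The part of lymphatic endothelial and mesothelial cells in the Ccl21a difference was not tested.

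Cxcl13 was high in iWAT in particular libraries. Cxcl13 ran from 0.124 to 1.3 CPM (median 0.55) over the 6 iBAT libraries, from 0.877 to 65.2 CPM (median 7.49) over those of iWAT and from 0.297 to 2.01 CPM (median 0.668) over those of eWAT. Beside the lymph node libraries, inguinal knockout mouse 1 had 11.4 CPM and wild type mouse 2 3.53 CPM, above all iBAT and eWAT libraries, and the remaining inguinal libraries lay within those ranges. The log2 fold change between iBAT and iWAT was -5.05 ± 1.06 (SE, edgeR adjusted p = 0.000763), or -2.67 ± 0.78 (SE, edgeR adjusted p = 0.0115) without the lymph node libraries, and the call was lost (-1.63, edgeR adjusted p = 0.0811) when inguinal knockout mouse 1 and epididymal knockout mouse 3, which carried genes of other tissues, were left out as well. Between the white depots it was 4.41 ± 1.01 (SE, edgeR adjusted p = 0.0114), or 2.03 ± 0.75 (SE, edgeR adjusted p = 0.119), and between iBAT and eWAT -0.64 ± 0.99 (SE, edgeR adjusted p = 0.606). The receptor Cxcr5 was at 37.8 CPM at most in iWAT and at 0.155 to 0.380 CPM without the lymph node libraries.

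Cxcl16 and Cx3cl1 are made as membrane-anchored proteins with a chemokine domain on a stalk. Cxcl16 binds CXCR6, and Cx3cl1 (fractalkine) binds CX3CR1. Cxcl16 ran from 2.46 to 4.73 CPM (median 3.51) over the 6 iBAT libraries, from 7.01 to 58.9 CPM (median 8.04) over those of iWAT and from 5.84 to 13.8 CPM (median 10.7) over those of eWAT. Cx3cl1 ran from 3.6 to 5.79 CPM (median 5.35) over the 6 iBAT libraries, from 4.95 to 11 CPM (median 7.3) over those of iWAT and from 4.25 to 18.8 CPM (median 6.09) over those of eWAT. Every iBAT value of Cxcl16 lay below every white value. Cxcl16 was lower in iBAT, with log2 fold changes of -2.38 ± 0.49 (SE, edgeR adjusted p = 0.000589) against iWAT and -1.57 ± 0.48 (SE, edgeR adjusted p = 0.0101) against eWAT, and of -1.13 ± 0.21 (SE, edgeR adjusted p = 0.000553) and -1.59 ± 0.20 (SE, edgeR adjusted p = 7.32e-06) without the lymph node libraries, so that its order in the white depots turned from 0.81 ± 0.46 to -0.46 ± 0.22 (iWAT minus eWAT), neither of which passed (edgeR adjusted p = 0.283 and 0.221). Without the 4 libraries that carried genes of other tissues, Cxcl16 and Ccl24 were called lower in iWAT than in eWAT. Cx3cl1 passed in no comparison in either fit (iBAT minus eWAT -0.91 ± 0.38 SE, edgeR adjusted p = 0.0536), but was called lower in iBAT than in eWAT by DESeq2, with a stricter filter (at least 10 counts in 9 libraries), and on leaving out the epididymal library of wild type mouse 2 or 3 or knockout mouse 1 or 2, or wild type mouse 3. Its highest values, 18.8 and 17.7 CPM, were in the epididymal libraries with 442 and 57.4 CPM of epithelial genes, against 3.35 to 10.9 CPM in the other 4, and the part of epithelium was not tested. Cxcl16 shares 552 bp of exon with Zmynd15 on the opposite strand.

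Xcl1, which T cells and natural killer cells make to attract XCR1-bearing dendritic cells, was scarce outside the inguinal depot, with 0 to 5 counts in iBAT, 2 to 20 in eWAT and 13 to 91 in iWAT. Xcl1 ran from 0 to 0.322 CPM (median 0.135) over the 6 iBAT libraries, from 0.503 to 3 CPM (median 1.61) over those of iWAT and from 0.0858 to 0.485 CPM (median 0.28) over those of eWAT. Each iWAT library was above each library of the other depots. The fold change was -3.57 ± 0.67 (SE, edgeR adjusted p = 0.000271) between iBAT and iWAT and 2.56 ± 0.59 (SE, edgeR adjusted p = 0.0127) between iWAT and eWAT, and without the lymph node libraries (3 and 2.05 CPM) -3.10 ± 0.70 (SE, edgeR adjusted p = 0.00208) and 2.10 ± 0.63 (SE, edgeR adjusted p = 0.0554), the latter being 2.18 ± 0.55 (SE, edgeR adjusted p = 0.0299) with the mouse block. It passed the filter through iWAT alone, so that these calls are a description of a gene high there, and it was not tested with the stricter filter (at least 10 counts in 9 libraries). It shares 98 bp of exon with Gm20743 on the opposite strand. Its receptor Xcr1 was lower in iBAT than in iWAT, with a log2 fold change of -1.91 ± 0.46 (SE, edgeR adjusted p = 0.00209), and of -1.04 ± 0.36 (SE, edgeR adjusted p = 0.0291) without the lymph node libraries.

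Cxcl17, a chemokine of mucosal epithelia, reached 2.24 CPM in inguinal knockout mouse 3 and at most 0.129 CPM in iBAT and eWAT. Cxcl17 ran from 0 to 0.129 CPM (median 0.0309) over the 6 iBAT libraries, from 0.0346 to 2.24 CPM (median 0.456) over those of iWAT and from 0 to 0.097 CPM (median 0.0243) over those of eWAT. It held 0 to 2 counts in iBAT, 0 to 4 in eWAT and 1 to 61 in iWAT, where 3 libraries (15, 20 and 61 counts) carried it past the filter. It was called against iBAT (-3.49 ± 0.96 SE, edgeR adjusted p = 0.00581 for iBAT minus iWAT) and eWAT (3.95 ± 0.91 SE, edgeR adjusted p = 0.012 for iWAT minus eWAT), which describes a gene selected for its level in iWAT, and it was not tested without the lymph node libraries or with the stricter filter, under which Ccl3, Ccl4, Ccl17 and Ccl21d also left. It was tested, and called against both, without the 4 libraries that carried genes of other tissues (the lymph node libraries, inguinal knockout mouse 1 and epididymal knockout mouse 3), at -3.45 and 3.99 (edgeR adjusted p = 0.0247 and 0.0456). With limma voom the call against eWAT was lost (2.33, limma adjusted p = 0.0682) and that against iBAT was kept (-2.21, limma adjusted p = 0.0248). Inguinal knockout mouse 3 also had the highest sum of epithelial genes of the depot (72.7 CPM, against 5.72 to 43.9 CPM), whose part in the value was not tested.

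Several calls lay near the threshold. When each of the 18 libraries was left out in turn, the call between iBAT and eWAT held in 14 fits for Ccl11 (lost without iBAT knockout mouse 2 or wild type mouse 3, or eWAT knockout mouse 1 or wild type mouse 2, at most adjusted p = 0.072 by edgeR, log2 fold change -1.03 to -0.70 over all 18 fits), in 13 for Cxcl9 (lost without iBAT wild type mouse 1 or knockout mouse 1, or eWAT wild type mouse 2 or 3 or knockout mouse 2, at most 0.0666, -0.74 to -0.50), in 11 for Ccl5 (at most 0.0939, -2.42 to -1.68) and in 10 each for Ccl21a (at most 0.0742, -3.91 to -3.04) and Ccl21d (at most 0.106, -10.25 to -5.10). Ccl5 lost this call without any iBAT library other than that of knockout mouse 3, and without eWAT wild type mouse 2 or knockout mouse 2. Ccl21a and Ccl21d lost it without any 1 of the 6 iBAT libraries or eWAT wild type mouse 1 or knockout mouse 2. The call of Ccl25 between iBAT and iWAT held in 11 fits (at most 0.083, 0.44 to 0.60), and was lost without iBAT wild type mouse 1 or 3 or knockout mouse 2 or 3, or iWAT knockout mouse 1 or 2 or wild type mouse 2. Between the white depots, Ccl22 kept its call in 4 fits, with log2 fold changes of 1.55 to 3.25, and Ccl5 in 13, with 1.72 to 3.06, lost without either lymph node library or eWAT wild type mouse 1 or 3 or knockout mouse 1. The remaining tissue calls of the chemokines named here held in all 18 fits without 1 library, apart from that of Ccl21a between iBAT and iWAT, which was lost without the inguinal library of wild type mouse 3. Leaving out all libraries of a mouse, in 6 fits, ended more calls (adjusted p by edgeR at its highest in parentheses). Between iBAT and eWAT, 2 fits kept Ccl11 (0.0986, kept without knockout mouse 3 or wild type mouse 1), Ccl5 (0.146, kept without mouse 3 of either genotype) and Cxcl9 (0.0974, kept without knockout mouse 3 or wild type mouse 2), 3 kept Ccl21a (0.1, lost without any knockout mouse) and 4 kept Ccl21d (0.183, lost without knockout mouse 2 or wild type mouse 1). Between iBAT and iWAT, 2 kept Ccl25 (0.14, kept without knockout mouse 3 or wild type mouse 2), while Ccl21a (0.131) was lost without wild type mouse 3 and Cxcl1 (0.072) without wild type mouse 1 or 3. Between the white depots, 0 kept Ccl22 (0.285), 2 kept Ccl5 (0.177, kept without mouse 1 of either genotype), and Ccl8 (0.0652) and Cxcl13 (0.0849) were lost without wild type mouse 3, Xcl1 (0.0718) without wild type mouse 2 or 3, and Cxcl17 (0.0543) without knockout mouse 3.

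By position, 12 of the 38 chemokines lie on chromosome 11, 11 on chromosome 5 and 5 on chromosome 4. On chromosome 11 they are Cxcl16 and the CC cluster from Ccl2 (start 82035571) to Ccl4 (end 83664683), of which all 11 tested were lower in iBAT than in iWAT (9 without the lymph node libraries) and 8 lower than in eWAT in both fits, where 30.3% (24.5%) and 30.2% (32.9%) of all genes were. On chromosome 5, 6 passed the filter, of which 6 were lower in iBAT than in iWAT (5 without the lymph node libraries) and 5 lower than in eWAT, to be read against the same shares. On chromosome 4, where Ccl27a lies between 41769467 and 41774247 and the Ccl21 and Ccl19 genes follow up to 42773993, neighbours went in opposite directions against eWAT in both fits: Ccl27a was higher in iBAT, and Ccl19 and Ccl21a were lower. Against iWAT, Ccl27a was higher and Ccl19 lower in both fits, and Ccl21a was called with all libraries alone.

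Of 18 typical chemokine receptors 14 passed the filter, of which 12 were called between iBAT and iWAT (11 lower, 1 higher in iBAT), 5 between iBAT and eWAT (4 lower, 1 higher) and 6 between the white depots (6 higher in iWAT), beside 54.3%, 54.6% and 10.2% of all genes. Without the lymph node libraries 13 were tested and the counts were 9 (8 lower), 6 (5 lower) and 1, Ccr10, beside 45.4%, 57.8% and 7.93%. Of the atypical receptors, which take up chemokines without signalling through G proteins, Ackr1 and Ackr2 were lower in iBAT than in both white depots, with log2 fold changes of -2.72 ± 0.31 (SE, edgeR adjusted p = 1.63e-06) and -3.51 ± 0.62 (SE, edgeR adjusted p = 0.000163) against iWAT, or -2.59 ± 0.33 and -3.21 ± 0.66 without the lymph node libraries. Another of them, Ackr3, at 14.3, 49.6 and 92.4 CPM (lowest, median and highest) in iBAT, passed in neither comparison and had the opposite sign, with 0.86 ± 0.40 (SE, edgeR adjusted p = 0.0752) against iWAT and 0.91 ± 0.40 (SE, edgeR adjusted p = 0.0617) against eWAT. Platelet factor Pf4, a CXC chemokine whose symbol is outside the rule, was lower in iBAT, with log2 fold changes of -2.30 ± 0.30 (SE, edgeR adjusted p = 8.44e-06) and -2.17 ± 0.30 (SE, edgeR adjusted p = 1.26e-05) against iWAT and eWAT, or -2.15 ± 0.31 and -2.16 ± 0.29 in the fit without those libraries.

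Knockout of Gm15551 changed no chemokine past the threshold. In iBAT, iWAT, eWAT and across the tissues 0 of 31 chemokines passed an adjusted p of 0.05 by edgeR's quasi-likelihood test, as in the interaction of genotype with tissue, where 0% of all genes passed in iBAT, iWAT and the interaction and 0.00534% (1 gene) in eWAT and across tissues. In the fit without the lymph node libraries 0 of 30 passed in each, beside 0.00519% of all genes in eWAT and across tissues. At an unadjusted p under 0.05, 0 chemokines passed in iBAT, iWAT and across tissues, 2 in eWAT and 1 in the interaction, and DESeq2 also called 0 after adjustment, with 1 in iWAT and 2 in eWAT at an unadjusted p under 0.05. With the lymph node libraries left out, edgeR's unadjusted p was under 0.05 for 3 chemokines in eWAT (Ccl28, Ccl19 and Cxcl11), for 1 across tissues (Cxcl11) and for 1 in the interaction (Ccl28). The median log2 fold change of the chemokines (ko minus wt) was -0.15 in brown, -0.06 in inguinal and -0.08 in epididymal fat, with median SE of 0.94, 0.71 and 0.72. With 3 mice per genotype, Cxcl12 differed by 0.03 ± 0.20, 0.08 ± 0.20 and -0.25 ± 0.20 in the 3 depots and Ccl27a by -0.24 ± 0.26, -0.06 ± 0.26 and 0.05 ± 0.26. In iWAT each genotype contained 1 lymph node library.

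The smallest unadjusted p in eWAT was that of Ccl28, an epithelial CCR10 and CCR3 ligand, named here after its values were seen. Its log2 fold change was -4.87 ± 1.39 (SE, edgeR unadjusted p = 0.00323, adjusted p = 1), but it rested on wild type mouse 1, with 24.4 CPM against 0.146 to 0.692 CPM in the other 5 epididymal libraries, and without that library it was -0.77 ± 0.97 (edgeR unadjusted p = 0.44). That library also held 57.4 CPM of epithelial and 17.1 CPM of epididymis genes, whose part was not tested. Cxcl11 was the other, at -1.07 ± 0.46 (edgeR unadjusted p = 0.0335, adjusted p = 1), with 1.76, 1.5 and 1.73 CPM in the wild type and 1.07, 0.801 and 0.495 CPM in the knockout epididymal libraries, without overlap.

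**Figure D5:**
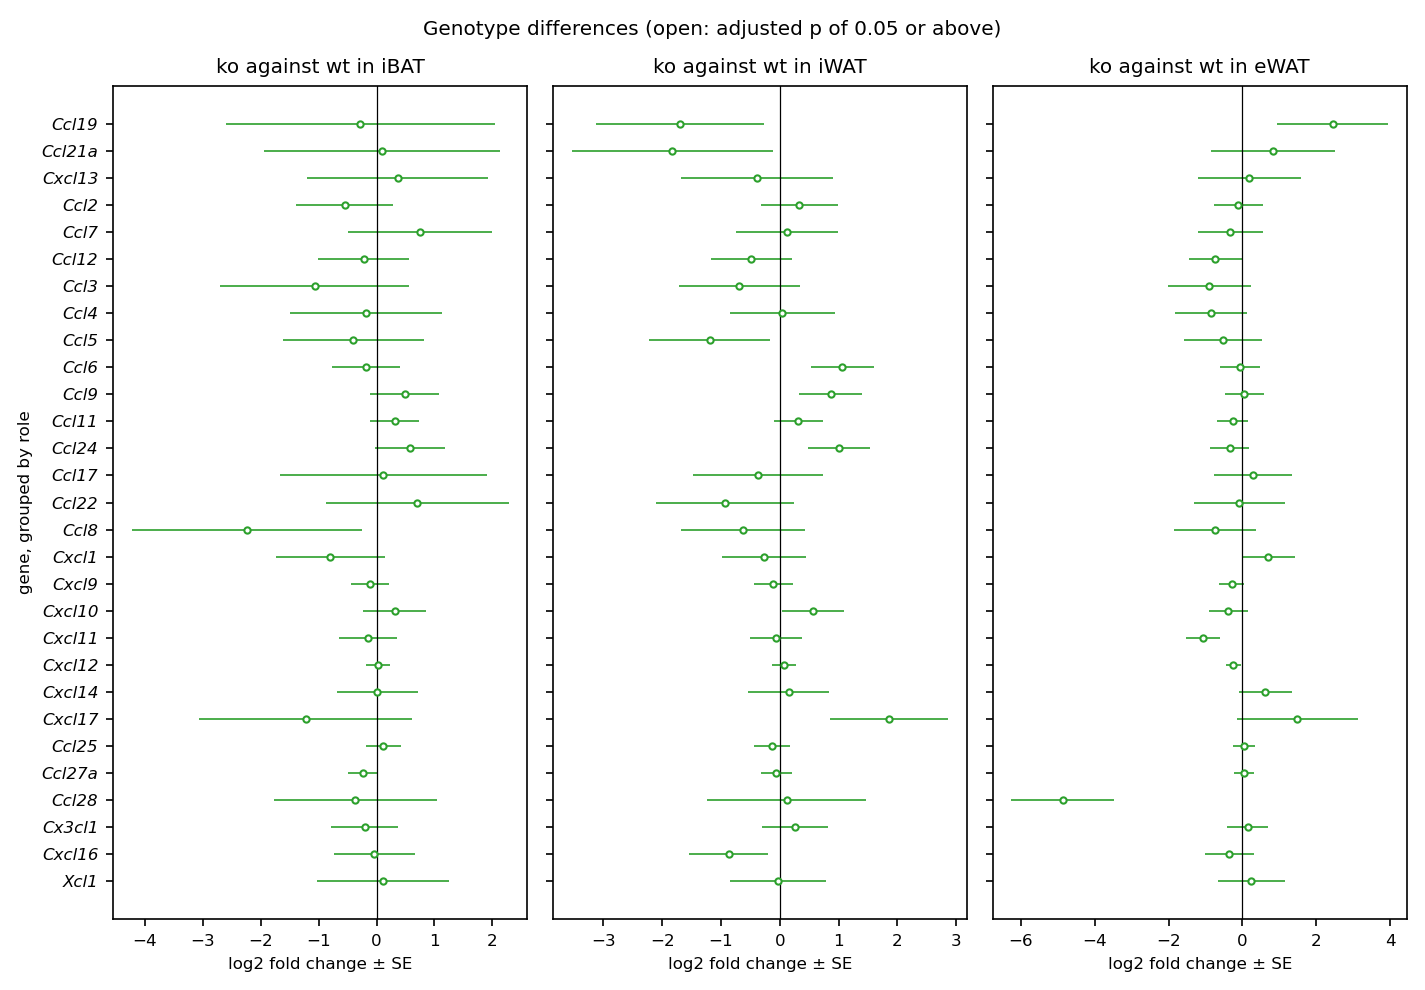
Log2 fold change (ko minus wt, 3 mice each) of 29 tested chemokines in iBAT, iWAT and eWAT, with bars of ± 1 SE from edgeR; open points did not pass an adjusted p of 0.05. All points are open, and the largest estimate drawn is that of Ccl28 in eWAT, which rests on 1 wild type library.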

How the data were processed

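Polyadenylated RNA of 18 libraries was sequenced as paired ends. The authors trimmed reads with cutadapt, quantified them with salmon against GENCODE M22 or that annotation with RNAcentral transcripts (GRCm38), and deposited estimated counts per gene, which are whole numbers and not normalised. The labels also name bcl2fastq and DESeq2. The strand setting is not given in the sources used here. Estimated counts divide reads among similar transcripts, which touches the Ccl21 copies. Genes were filtered with filterByExpr by group, scaled by TMM (edgeR 4.0.16, R 4.3.3) and tested with edgeR's quasi-likelihood test with Benjamini-Hochberg adjustment over all genes and a threshold of 0.05. The scaling factors ran from 0.617 to 0.744 (iBAT) and from 1.06 to 1.44 (white depots), so that the scaling raised the CPM of iBAT against those of the white depots. Depots, and the knockout across depots, were compared with tissue and genotype terms, and the knockout within depots and the interaction with 6 group means. The SE was taken as the size of the log2 fold change over the root of its F statistic. A count of 3, the level a count of 0 allows, was 0.0728 to 0.235 CPM, which covers counting error only. P-values of fits without the mouse block measure the spread between libraries. These fits count the libraries of a mouse as separate replicates, also for the knockout across depots. The script was tested on simulated data.

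Libraries of a mouse were paired by the mouse identity in the labels. The deviations of the 18 same-mouse pairs from group means correlated at -0.142 to 0.352, 8 of them over 0.1, and those of 18 pairs of different mice (same number, other genotype and tissue) at -0.0441 to 0.299, 9 of them over 0.1, so that the correlations do not set the mice apart. Alternatives were DESeq2 size factors, DESeq2 1.42.0, limma 3.58.1 voom, other filters, a lymph node covariate, blocks, and leaving out libraries or mice. The fit without 4 libraries, the summed Ccl21 copies and the mouse block without the lymph node libraries were chosen after seeing the data. Named genes were the 29 chemokines that passed the filter with a call between depots in the fit with or without the lymph node libraries, or with a mean of at least 5 CPM in a depot. The members and lists were chosen with earlier results of these data known. Positions are from GENCODE M21, and promoters from RefSeq (GRCm38.p6). The count over 1 list of chemokines by receptor is not reported here.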

Additional observations from a re-analysis of the deposited data

Results flagged for a closer look

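Of 33 sums of chemokine lists by depot, 3 had a library farther from the others than Dixon's 95% critical value for 6 samples, where chance flags about 1 in 20 groups. The summed level of the lymphoid homing chemokines in iWAT was highest in wild type mouse 3, a lymph node library, at 391.6 CPM, with a gap of 0.676 of the range. The sum of the membrane-anchored Cxcl16 and Cx3cl1 in iWAT was highest in the same library, at 69.55 CPM (0.634 of the range). The sum of all 38 chemokines in eWAT was lowest in knockout mouse 3, at 256 CPM (0.698 of the range), the library with 4823 CPM of epididymis genes and the fewest macrophage transcripts of the depot (153 CPM, against 364 to 539 CPM), whose part was not tested.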

How the results depend on the processing

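Of 2024 values of 54 gene results under alternatives, 1812 kept their direction and side of the threshold, 183 lost a call, 16 gained one and 13 changed sign. Of 293 counts, 282 stayed within 1.5 times. The 7 chemokines called between iWAT and eWAT (beside 10.2% of all genes) became 2 without the lymph node libraries (7.93%), 2 with the Ccl21 copies also summed, 2 with voom and 4 with a lymph node covariate. They became 4 with the mouse block and no lymph node libraries (10.1%), 4 with those tissues fitted alone and 6 without 4 libraries (3 of the 7, and Ccl21a, Ccl24 and Cxcl16, beside 10.2% of all genes, 5.7% higher and 4.55% lower). In wild type mice alone 0 were called (1.42% of all genes in that fit), and iBAT against eWAT fell to 11 (37.7% of all genes). Leaving out 1 library gave 24 to 26 (iBAT against iWAT), 15 to 22 (iBAT against eWAT) and 5 to 8 (iWAT against eWAT), and leaving out 1 mouse 22 to 27, 15 to 20 and 2 to 6, and the genotype counts stayed at 0 in edgeR. Where no share of all genes is given, a change among chemokines and a general change in calls cannot be told apart.

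Ccl21a between iBAT and iWAT (-4.96) became 1.09 without 4 libraries, 0.067 with the covariate and 0.15 with voom. Between iWAT and eWAT (1.27) Ccl21a became -3.52 without the lymph node libraries, -4.79 without 4 libraries, -3.66 with copies summed and no lymph node libraries, -2.89 with the covariate, -4.09 with voom, -1.03 with the mouse block, -3.51 with that block and no lymph node libraries, and -1.15 to 1.80 leaving out 1 library each (lowest without the inguinal library of wild type mouse 3), with -1.30 without that mouse. Ccl22 between iWAT and eWAT became -0.087 with the covariate. The cause was not tested.

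Wild type and knockout mice share only a number: 9 same-number pairs correlated at -0.591 to 0.627, 4 over 0.1, and with the number as a replicate block 0 chemokines were called. The mouse block changed no chemokine call other than those given in the report and, without the lymph node libraries, Ccl25, Ccl4 and Cxcl12 (iBAT against eWAT) and Ccl21d (iWAT against eWAT), which it added. Depth limits the scarce chemokines, many of which lay near 3 counts in iBAT.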
